A study of Mus musculus with 2 samples.

Results

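The genes described here build the primary cilium and pass the hedgehog signal through it. They are 44 genes named from textbook roles, and each was read from the probe set, among those that the platform annotation gives to that gene alone, with the highest mean over both arrays. Such a probe set existed for 42 of the 44, out of 18193 genes named in this way on the array. Arl13b and Rpgrip1l were not analysed here. All 42 were measured, meaning that the brighter array was above a floor of 78.1, the median of all non-control intensities, and all 42 lay above it on both arrays. Over the whole array 11621 genes, 63.9% of those named, were measured.

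Hammer toe is a mouse mutant in which the tissue between the toes persists and webs the digits. RNA came from the interdigital regions of the hind limb labelled ID2 and ID3 at E13.5 (embryonic age in days), from embryos homozygous for Hammer toe and from wild-type B6 embryos, and was read on 1 Affymetrix array per genotype. The design text speaks of 3 sets of 5 littermates and 15 embryos in each genotype, and it is not stated how these relate to the single array. The label of the mutant names no strain, so strain and the Hammer toe genotype cannot be told apart. There are no replicates, so no value has an error between samples, no test was possible, and the number of arrays limits the precision.

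The primary cilium is a single, non-motile projection of the cell surface. Intraflagellar transport (IFT) carries cargo along it: kinesin with the IFT-B particle moves toward the tip, and dynein with the IFT-A particle moves back. A transition zone at the base and the BBSome, a coat-like complex, govern which membrane proteins enter and leave. In vertebrates the hedgehog receptor component Smoothened collects in the cilium when ligand is present, and the Gli transcription factors are processed or activated there. In mice and humans, loss of many of these genes disturbs digit number or digit form.

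As a group, the cilium and hedgehog transduction genes stood close to wild type in Hammer toe interdigital tissue. The log2 ratio of Hammer toe over wild type had a median of 0.016 in the set, against 0.0071 over all measured genes. In the set 23 of 42 genes were higher and 19 lower. That is 54.8% higher, close to the 51.7% over all measured genes. The same 51.7% is the background for the counts of each role and list below, none of which was tested. Among single genes the exception was Cdk20, a protein kinase of the cilium, which was 2.47-fold lower in Hammer toe. Evc2 was 1.34-fold higher and Ift172 was 1.31-fold lower, and in the other 39 genes the brighter array was less than 25% above the dimmer one. That is 92.9% of the 42, against 85.2% of all measured genes. The set holds few dim genes, for which ratios scatter most: the brighter array read 200 or less for 2 of the 42, against 2070 of the 11621.

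With a difference of 25% or more, always counted as the brighter array over the dimmer one, 1 of the 42 genes was higher in Hammer toe and 2 were lower, where 8.47% of all measured genes were higher and 6.33% lower. At 1.5-fold or more, none was higher and only Cdk20 was lower, where 2.17% of all measured genes were higher and 1.39% lower. At 2-fold or more the shares over all measured genes were 0.258% higher and 0.112% lower, and Cdk20 was again the only one of the 42. These shares depend on the floor: with no floor, 8.36% of all genes were at least 2-fold lower, and with a pseudocount in place of the floor Cdk20 was no longer 2-fold lower. Each share near or under its background is no result about the set. The size of ratio that takes in 95% of genes depended on brightness. It was 1.60-fold for genes whose brighter array read up to 200, 1.45-fold between 200 and 1000, and 1.24-fold above 1000. By this measure 5.01% of all measured genes lay beyond the limit for their brightness, and 1 of the 42, Cdk20, did so. Within the middle range, the 28 genes of the set had a median absolute log2 ratio of 0.14, and so did all 4857 genes of that range. Above 1000, the 12 genes of the set had 0.065, against 0.085 over 4694 genes.

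**Figure D1:**
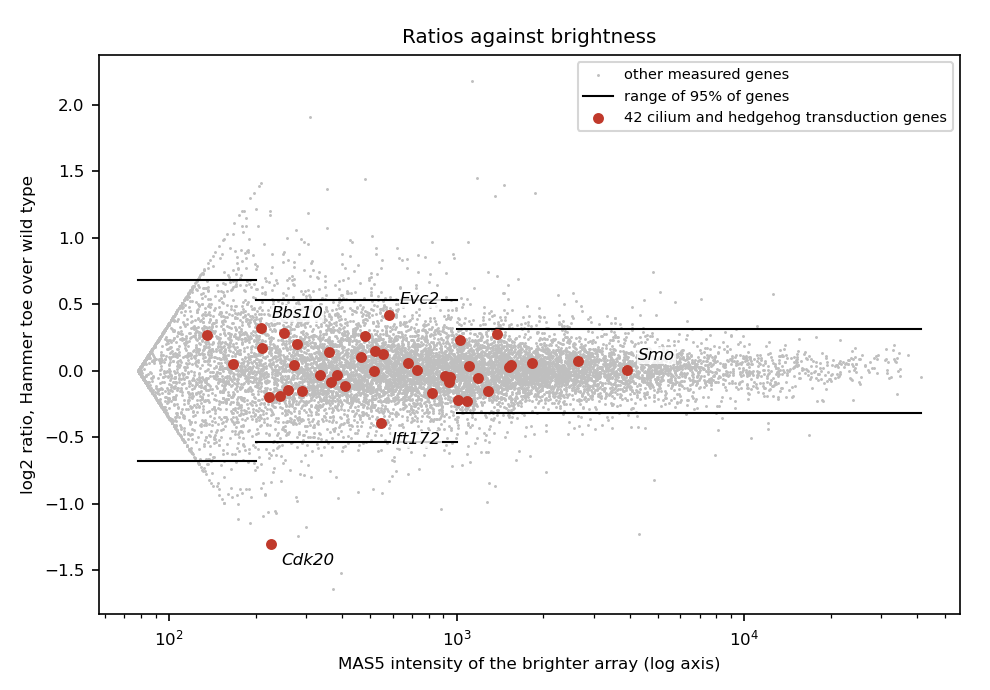
Log2 ratio, Hammer toe over wild type, against the MAS5 intensity of the brighter array on a log axis, for every measured gene. Red points are the 42 cilium and hedgehog transduction genes, grey points the other measured genes, and black lines the limits that hold 95% of all measured genes in each range of brightness (1.60-fold, 1.45-fold and 1.24-fold). Cdk20, at -1.31, is the only red point outside the lines.

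The components that handle the hedgehog signal itself were measured for 9 of 10 genes, with 5 higher and 4 lower. Smo, the membrane protein that relays the signal once ligand binds the receptor, read 3927 in Hammer toe and 3917 in wild type, a log2 ratio of 0.0038. Its second measured probe set read 1761 in Hammer toe and 1551 in wild type, a log2 ratio of 0.18. Sufu, which binds Gli proteins and holds them back, read 931 in Hammer toe and 1088 in wild type, a log2 ratio of -0.23. Kif7, a kinesin that organises the ciliary tip, read 519 in Hammer toe and 470 in wild type, a log2 ratio of 0.15. These 3 regulators, which act below the receptor, thus differed by at most 1.17-fold.

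Gpr161 and Tulp3 act together in keeping the pathway off. Gpr161 is a receptor that restrains hedgehog signalling from within the cilium, and it read 1025 in Hammer toe and 873 in wild type, 1.17-fold higher. Tulp3, which brings Gpr161 and other membrane proteins into the cilium, read 1156 in Hammer toe and 1286 in wild type, a log2 ratio of -0.15. The other measured probe sets of Tulp3 were on the opposite side, at 0.12 and 0.13, and 1 of them was under the floor in wild type. No direction can be given for Tulp3 from these values.

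Evc and Evc2 encode a pair of membrane proteins that sit near the base of the cilium, bind Smoothened and pass its signal on. In humans their loss causes Ellis-van Creveld syndrome, with short limbs and extra digits. Evc2 read 584 in Hammer toe and 436 in wild type, a log2 ratio of 0.42, the highest of the 42. Evc read 327 in Hammer toe and 334 in wild type, a log2 ratio of -0.034, and 0.026 on its second probe set. The partner genes thus differed from each other in ratio, with Evc2 higher on 1 probe set and Evc near 0 on both of its own. Efcab7, whose product anchors the Evc and Evc2 proteins in their zone, read 250 in Hammer toe and 205 in wild type, 1.22-fold higher. All of these ratios lie inside the 1.45-fold range of genes of that brightness.

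The 2 genes lie head to head on mouse chromosome 5, and the RefSeq promoter windows place their start sites 1597 bases apart. The windows, each from 250 bases before to 50 bases after the start site on GRCm38.p6, are shown because the genes share this stretch of the genome and their ratios differ. Each is written 5′ to 3′ on the strand of its gene. Capitals mark the letters found in a search of either strand for 4 short motifs and a shortened form of 1 of them, described further on: GGCAAC is GTTGCC read on the opposite strand, and GCGCATGC is GCATGCGC read on the opposite strand.
Evc, chr5:37336832-37337131, minus strand: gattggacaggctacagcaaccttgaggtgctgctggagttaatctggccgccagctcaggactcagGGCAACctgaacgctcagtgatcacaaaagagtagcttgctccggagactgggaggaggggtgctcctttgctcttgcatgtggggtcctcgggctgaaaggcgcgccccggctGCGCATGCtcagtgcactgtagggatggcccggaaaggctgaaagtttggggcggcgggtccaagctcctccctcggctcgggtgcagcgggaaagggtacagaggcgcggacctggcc
Evc2, chr5:37338228-37338527, plus strand: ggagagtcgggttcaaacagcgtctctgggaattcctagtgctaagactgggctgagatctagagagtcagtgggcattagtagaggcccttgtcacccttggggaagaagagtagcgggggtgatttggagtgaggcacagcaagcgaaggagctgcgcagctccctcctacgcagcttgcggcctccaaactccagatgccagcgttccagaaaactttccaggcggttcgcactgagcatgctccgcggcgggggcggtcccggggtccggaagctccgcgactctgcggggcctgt

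Cdk20, also known as cell cycle-related kinase, controls the form of the cilium and, in mice, is needed for normal responses to Sonic hedgehog. It read 91.4 in Hammer toe and 226 in wild type, a log2 ratio of -1.31. The Hammer toe value lay only just above the floor of 78.1. The reading rests on a single probe set, of the _s_at type, which can match more than 1 transcript, and no other probe set names the gene alone. Cilk1, a kinase that Cdk20 activates, read 946 in Hammer toe and 1057 in wild type, with log2 ratios from -0.16 to 0.26 over 3 measured probe sets. Mak, a related kinase, was under the floor on both arrays.

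The promoter window of Cdk20 is shown because the gene had the largest difference of the set. It is written in the same way, and the capitals again mark GTTGCC read on the opposite strand, which starts 21 bases before the start site.
Cdk20, chr13:64432303-64432602, plus strand: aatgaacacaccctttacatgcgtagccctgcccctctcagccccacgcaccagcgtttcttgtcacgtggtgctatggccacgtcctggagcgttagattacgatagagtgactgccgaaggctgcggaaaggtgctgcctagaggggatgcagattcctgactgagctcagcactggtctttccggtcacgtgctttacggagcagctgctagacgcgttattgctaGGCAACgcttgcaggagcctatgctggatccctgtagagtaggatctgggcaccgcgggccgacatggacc

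The hedgehog ligand gene and 3 targets of the pathway were read on the same arrays. Hhip was 3.75-fold higher in Hammer toe, Shh at least 2.45-fold, Gli1 1.82-fold and Ptch1 1.248-fold. Hhip read 310 in Hammer toe and 82.7 in wild type, and its 4 measured probe sets ran from 0.66 to 1.91. Shh, the ligand, read 192 in Hammer toe and was under the floor in wild type at 22.5. Gli1, a transcription factor that the pathway both uses and induces, read 425 in Hammer toe and 234 in wild type. None of the 42 cilium and transduction genes was higher by as much as Gli1. The lists overlapped at Ptch1: Evc2, at 1.34-fold, was above it, and Bbs10, at 1.247-fold, was close to it. The difference between the 2 lists was not tested, and with 1 array per genotype it could not be.

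**Figure D2:**
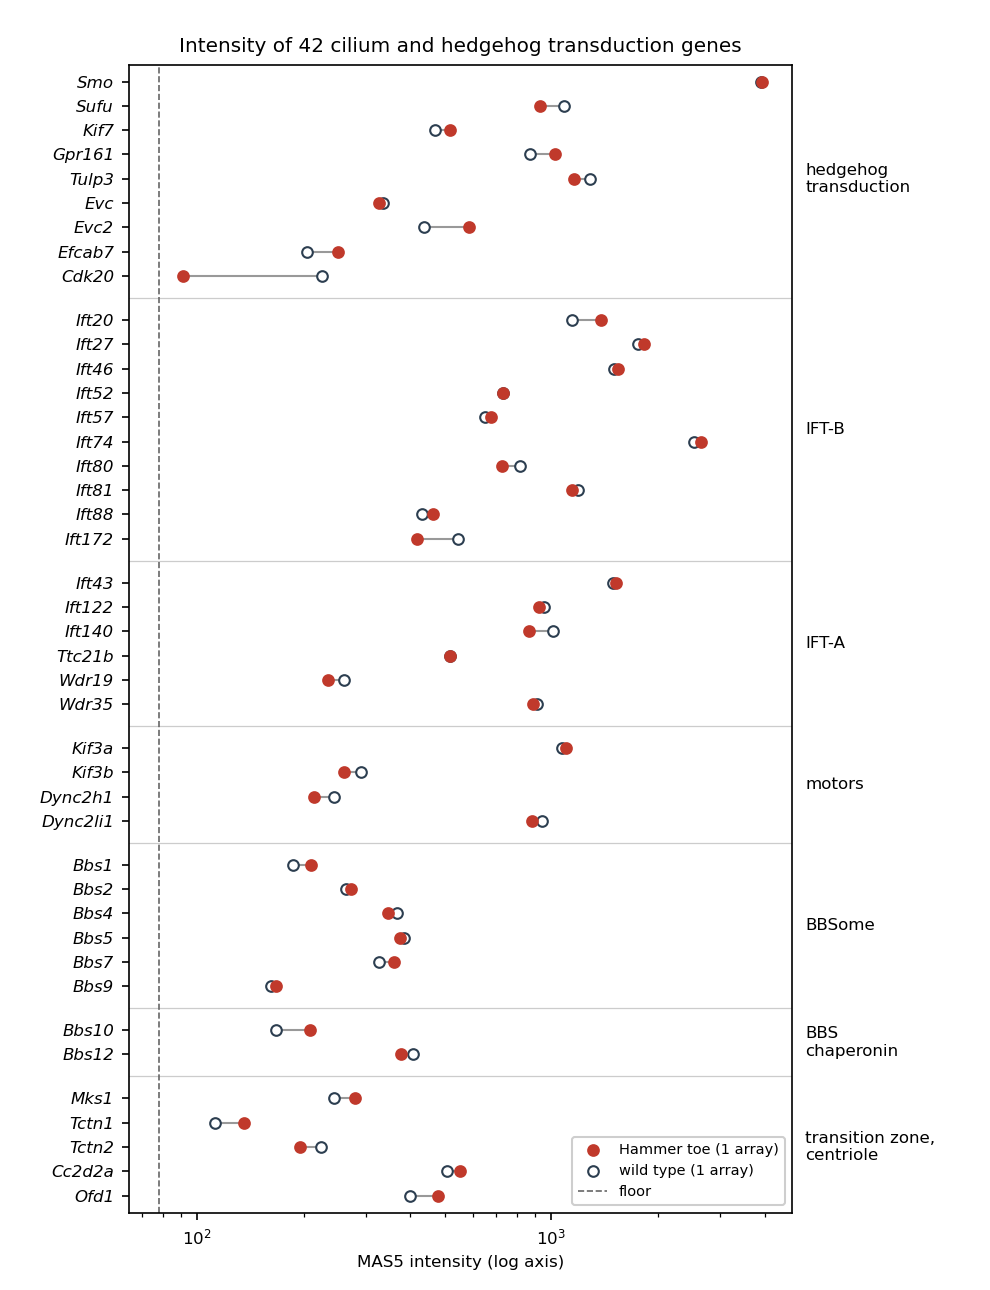
MAS5 intensity on a log axis of the 42 genes, grouped by role, in Hammer toe (filled red) and wild type (open), 1 array each, joined by a line. The dashed line is the floor of 78.1. The points of most genes touch or lie side by side, while Cdk20 spans 91.4 in Hammer toe and 226 in wild type.

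The IFT-B particle, which carries tubulin and other cargo to the tip, was measured for all 10 listed genes. Of these, 7 were higher and 3 lower in Hammer toe, with a median log2 ratio of 0.049. Within the 10 listed genes the core was the more even part, with Ift27, Ift46, Ift52, Ift74, Ift81 and Ift88 between -0.053 and 0.10. That did not extend to all other core subunits, which were read from a separate list of cilium genes. Ift22 was at 0.28, Ttc30a1 at -0.25 and Ttc30b at -0.14, while Hspb11 and Ttc26 were inside that range, at 0.041 and -0.034. Ift88, whose loss in mice removes cilia and disturbs digit number, read 464 in Hammer toe and 432 in wild type. Ift74, which with Ift81 binds tubulin, read 2646 in Hammer toe and 2519 in wild type. Ift27, a small GTPase that helps cargo leave the cilium, read 1828 in Hammer toe and 1756 in wild type, a log2 ratio of 0.059, with -0.015 and -0.061 on its other probe sets. Ift46 and Ift52, structural subunits of the core, had log2 ratios of 0.042 and 0.0048. Ift81 was at -0.053, and at -0.21 on its second measured probe set.

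The listed peripheral IFT-B subunits, which link the particle to the kinesin motor, ran from -0.39 to 0.28. Ift172, the largest IFT-B subunit, which is mutated in human skeletal ciliopathies, read 417 in Hammer toe and 547 in wild type, 1.31-fold lower. Only 1 probe set names it, and the ratio lies inside the 1.45-fold range of its brightness. Ift20, which also works at the Golgi where ciliary membrane proteins are sorted, read 1382 in Hammer toe and 1142 in wild type, 1.21-fold higher. That is near the 1.24-fold limit for genes above 1000. Ift80 read 728 in Hammer toe and 818 in wild type, a log2 ratio of -0.17, but 0.15 on its second probe set. Ift57 had a log2 ratio of 0.056.

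The IFT-A particle, which serves the return journey and brings membrane receptors into the cilium, was lower in Hammer toe for 5 of 6 genes, by small amounts. The median log2 ratio was -0.043. Ift140 was the furthest from wild type, at 864 in Hammer toe and 1008 in wild type, 1.17-fold lower. Wdr19, another core subunit, read 234 in Hammer toe and 259 in wild type, a log2 ratio of -0.15. For the core subunit Ift122 the brighter probe set gave -0.046 and the dimmer 0.041. Wdr35 and Ttc21b, peripheral subunits, were at -0.039 and -0.0010, and their second probe sets at -0.23 and -0.14. Ift43, the smallest subunit, was at 0.027. With the sign of Ift122 set by the choice of probe set and Ttc21b read as 518 on both arrays, the count of 5 lower genes rests in part on differences close to 0.

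The motors gave 3 of 4 genes lower. Kif3a, a motor subunit of the kinesin that moves IFT outward, read 1104 in Hammer toe and 1075 in wild type, and its 4 measured probe sets all lay above 0, from 0.019 to 0.22. Kif3b, its partner subunit, read 261 in Hammer toe and 290 in wild type, a log2 ratio of -0.15. The 4 probe sets of Kif3b ran from -0.31 to 0.15, so that they did not settle a direction. Dync2h1, the heavy chain of the return motor, was at -0.19, from 213 in Hammer toe and 244 in wild type. Dync2li1, the light intermediate chain of that motor, was at -0.088.

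**Figure D3:**
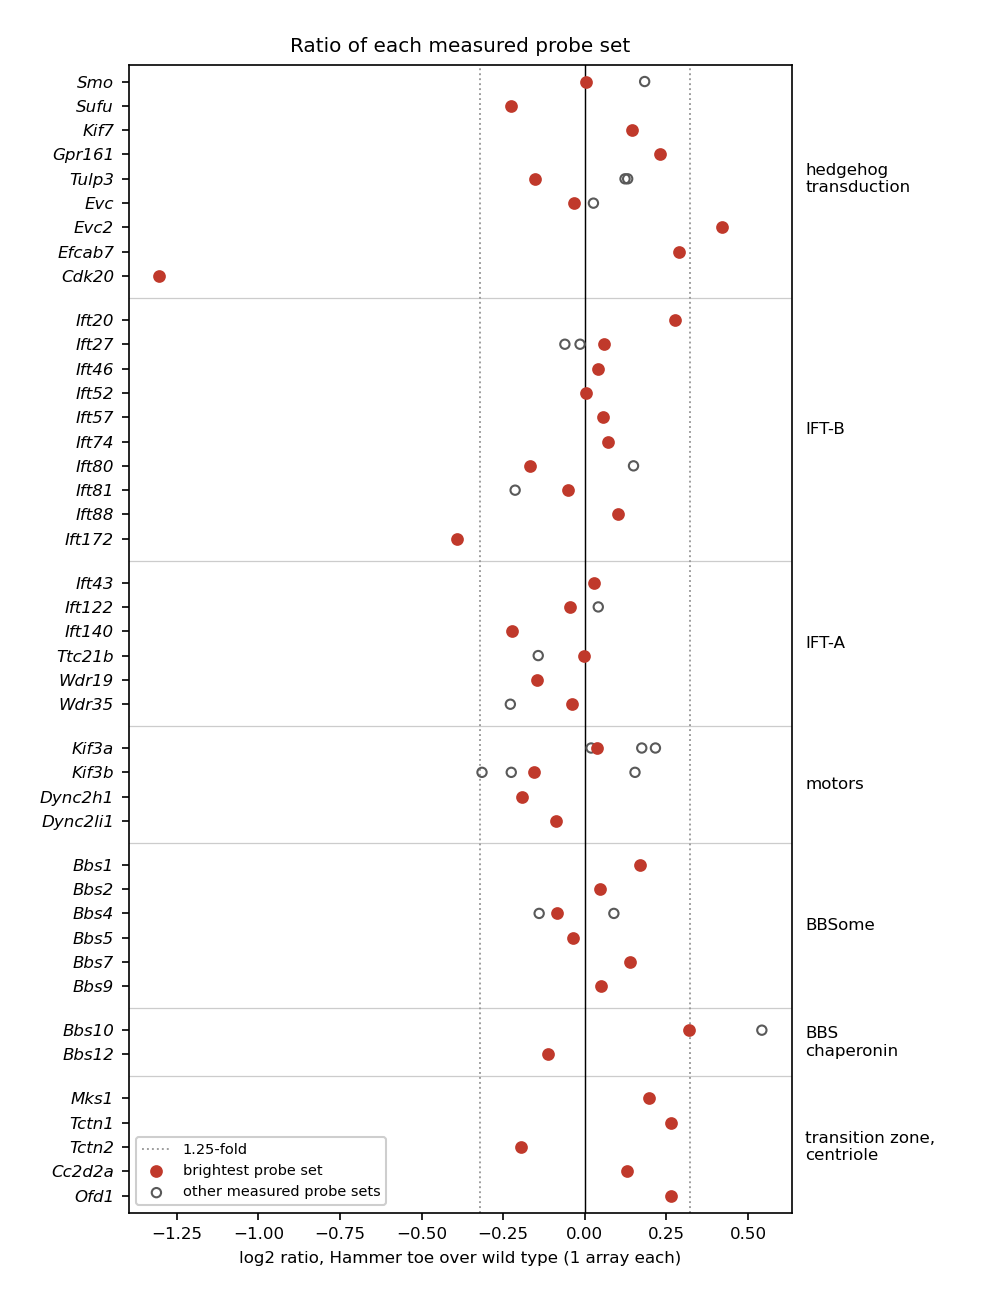
Log2 ratio, Hammer toe over wild type, of each measured probe set of the 42 genes, grouped by role. Filled points are the brightest probe set of a gene, open circles its other measured probe sets, and dotted lines mark a 25% difference of the brighter over the dimmer array. Cdk20 at -1.31, Ift172 at -0.39 and Evc2 at 0.42 are the filled points outside the dotted lines, and each has no other measured probe set.

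The BBSome, which takes signalling receptors out of the cilium, was measured for all 6 listed genes, which ran from -0.085 to 0.17. Bbs1, the subunit that meets cargo, read 210 in Hammer toe and 187 in wild type, a log2 ratio of 0.17. Bbs7 was at 0.14, Bbs9 at 0.049 and Bbs2 at 0.047. Bbs5 was at -0.035, and the 3 measured probe sets of Bbs4 ran from -0.14 to 0.089. Bbs10 and Bbs12 encode chaperonin-like proteins that help to assemble the BBSome, and they went apart. Bbs10 read 209 in Hammer toe and 168 in wild type, 1.247-fold higher, which is just short of 25%. Its second probe set read 193 in Hammer toe and 133 in wild type, a log2 ratio of 0.54, inside the 1.60-fold range of dim genes. At 1.456-fold it would lie just beyond the 1.448-fold limit between 200 and 1000, the range of the first probe set. Bbs12 read 378 in Hammer toe and 408 in wild type, a log2 ratio of -0.11.

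The listed transition zone genes and Ofd1 were higher for 4 of 5, with a median log2 ratio of 0.20, the highest of the 7 roles. Further transition zone genes, given at the end of this paragraph, did not share that shift. Mks1, a transition zone protein mutated in Meckel syndrome, read 280 in Hammer toe and 244 in wild type, a log2 ratio of 0.20. Cc2d2a, also of this zone, was at 0.13, from 554 in Hammer toe and 507 in wild type. Tctn1 and Tctn2, named for the tectonic proteins that modulate hedgehog signalling in mice, pointed in opposite directions. Tctn1 read 136 in Hammer toe and 113 in wild type, a log2 ratio of 0.27, while Tctn2 read 195 in Hammer toe and 223 in wild type, a log2 ratio of -0.20. Ofd1, a protein of the centriole from which the cilium grows, read 479 in Hammer toe and 399 in wild type, 1.20-fold higher. All 5 listed genes rest on 1 probe set each and lie inside the range of their brightness. Transition zone genes of the separate list lay on both sides of 0. Nphp4 was at 0.28, B9d1 at 0.13, Tctn3 at 0.056 and Tmem231 at 0.040. Tmem216 was at -0.25, Cep290 at -0.19, Iqcb1 at -0.095, B9d2 at -0.083, Ahi1 at -0.051 and Tmem107 at -0.0010.

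Probe sets of the same gene give a measure of part of the technical scatter. They are read on the same 2 arrays, so it leaves out variation between embryos and any labelling or array error that they share. Of the 42 genes, 29 had 1 measured probe set and 13 had more. In 6 of these 13 all probe sets lay on the same side of 0, and in 7 they did not. Within a gene, log2 ratios scattered between probe sets with an SD of 0.14 in these 13 genes, against 0.21 in the 5134 genes of the array that had several such probe sets, each with both readings over the floor. Most of the log2 ratios given above are of that size or smaller. The 18 spiked hybridisation controls, which share no tissue RNA, had log2 ratios with an SD of 0.063.

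The promoter windows of these genes were searched for short recognition sequences. RFX transcription factors are known as regulators of ciliary genes and bind a core of the form GTTGCCA, or the variant GTTGCTA. RefSeq promoter windows, again on GRCm38.p6, were found for 39 of the 44 genes. Ift122, Dync2li1, Ift80, Ift81 and Efcab7 had none in the table. GTTGCCA stood on either strand in 7 of the 39, or 17.9%, against 5.02% of all 27025 genes with a window. GTTGCTA stood in 6, or 15.4%, against 4.28% of all genes: Ift52, Ift74, Kif3b, Bbs12, Cc2d2a and Rpgrip1l. One core or the other was present in 13, or 33.3%, against 8.77%. The shorter form GTTGCC, which GTTGCCA contains and which was added to the search after seeing the data, stood in 17, or 43.6%, against 14.1%.

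The stretches that hold GTTGCCA are printed to show how the core sits in each promoter. Each is written 5′ to 3′ on the strand on which the core, in capitals, reads GTTGCCA, and it is cut short where the window ends.
Bbs1, chr19:4906610-4906636, minus strand: ggctgagctgGTTGCCAaggcgacgcc
Dync2h1, chr9:7177009-7177033, plus strand: actcagcaGTTGCCAagctccgtcg
Ift27, chr15:78174074-78174100, minus strand: gttgatgatgGTTGCCAggagcctgtt
Ift88, chr14:57424081-57424107, minus strand: acgcccagccGTTGCCAggcgcgactc
Mks1, chr11:87853181-87853207, plus strand: cagcgtctccGTTGCCAggggaacgag
Tctn2, chr5:124598752-124598778, plus strand: ttgattggtgGTTGCCAtggctgcagg
Wdr35, chr12:8974031-8974050, plus strand: ggcggcggtgGTTGCCAggc

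Which genes counted as having an RFX core, and so how their ratios compared, depended on the form searched. Of the 12 measured genes with GTTGCCA or GTTGCTA, 7 were higher and 5 lower in Hammer toe, with a median log2 ratio of 0.032. Of the 25 measured genes whose window held neither, 15 were higher and 10 lower, with a median of 0.038. The genes with one of these cores ran from -0.20 to 0.20, and those without from -1.31 to 0.42. With the shorter GTTGCC, which the Cdk20 window holds, the ranges turned round: the 16 measured genes with it ran from -1.31 to 0.27, with 8 higher, 8 lower and a median of 0.0021. The 21 without it ran from -0.23 to 0.42, with 14 higher, 7 lower and a median of 0.042. With GTTGCC or GTTGCTA, the 21 genes with a match had a median of 0.0048 and the 16 without one a median of 0.044. A Gli recognition sequence, TGGGTGGTC, stood in none of the 39 windows and in 0.289% of all genes. The NRF1 core GCATGCGC stood in 2, Evc and Kif3a, or 5.13%, against 3.05% of all genes. Such matches describe the letters of these windows only and do not show that a factor binds there.

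Other genes of the primary cilium, 56 in a separate list, gave much the same picture. Of 50 measured, 25 were higher and 25 lower, with a median log2 ratio of -0.00025. With a difference of 25% or more, 2 were higher and 1 lower, where 8.47% of all measured genes were higher and 6.33% lower. The remaining 47, or 94.0%, differed by less, against 85.2% of all measured genes, so these counts are no result about the list. Wdr34, an intermediate chain of the return dynein, read 554 in Hammer toe and 386 in wild type, 1.44-fold higher. Wdr60, its partner chain, went the other way, at 244 in Hammer toe and 285 in wild type. Cep164, a centriole appendage protein, was 1.34-fold higher by the brighter of its probe sets, whereas the dimmer gave -0.36, so its direction is not settled. Kif17, a kinesin of cilia, was under the floor in Hammer toe at 40.8 and read 112 in wild type, at least 1.44-fold lower. Cluap1 and Traf3ip1, which are peripheral IFT-B subunits like Ift20 and Ift172, were at 0.23 and 0.25. Mkks, the partner of Bbs10 and Bbs12, was at -0.00077.

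The tissue label was checked against markers, and lists of other cell types were read beside it. Interdigit mesenchyme markers were all above the floor. The brightest was Hoxd13, at 15779 in Hammer toe and 17291 in wild type. The dimmest was Hoxa13, at 761 in Hammer toe and 1009 in wild type, 1.33-fold lower and the largest difference of the 8. In Hammer toe 7 of 8 were lower, with summed intensities of 63266 in Hammer toe and 69713 in wild type. Markers of motile cilia were largely silent: 18 of the 22 named were under the floor on both arrays, including Foxj1, the regulator of that programme. The summed intensity of the other 4 was 480 in Hammer toe and 402 in wild type. Cartilage markers were lower for 11 of 12, with summed intensities of 10860 in Hammer toe and 16716 in wild type, and Comp was under the floor on both arrays. Erythroid markers were lower for 8 of 8, with 49984 in Hammer toe and 58225 in wild type, and Epb42 was under the floor on both. Among them Tal1 was at -0.021, and Hbb-y at -0.039 with another measured probe set at 0.19. Surface ectoderm markers were higher for 9 of 11, with 15466 in Hammer toe and 12507 in wild type. Macrophage markers were higher for 10 of 11, with 4031 in Hammer toe and 3128 in wild type. Muscle markers were higher for 6 of 8, with 1949 in Hammer toe and 1298 in wild type, and Myf5, Pax3 and Pax7 were under the floor on both. Endothelial markers were higher for 5 of 9, with 5085 in Hammer toe and 4658 in wild type. Schwann and nerve markers were higher for 5 of 5, with 1242 in Hammer toe and 977 in wild type, and Foxd3 was under the floor on both. That count rests in part on ratios close to 0. Sox10 only just cleared the floor in Hammer toe and was under it in wild type, a log2 ratio of 5.3e-05, and Tubb3 was at 0.043. In bulk tissue, fewer cells of a type and less RNA per cell cannot be told apart, and the part of these shifts in the ratios of the cilium genes was not tested.

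**Figure D4:**
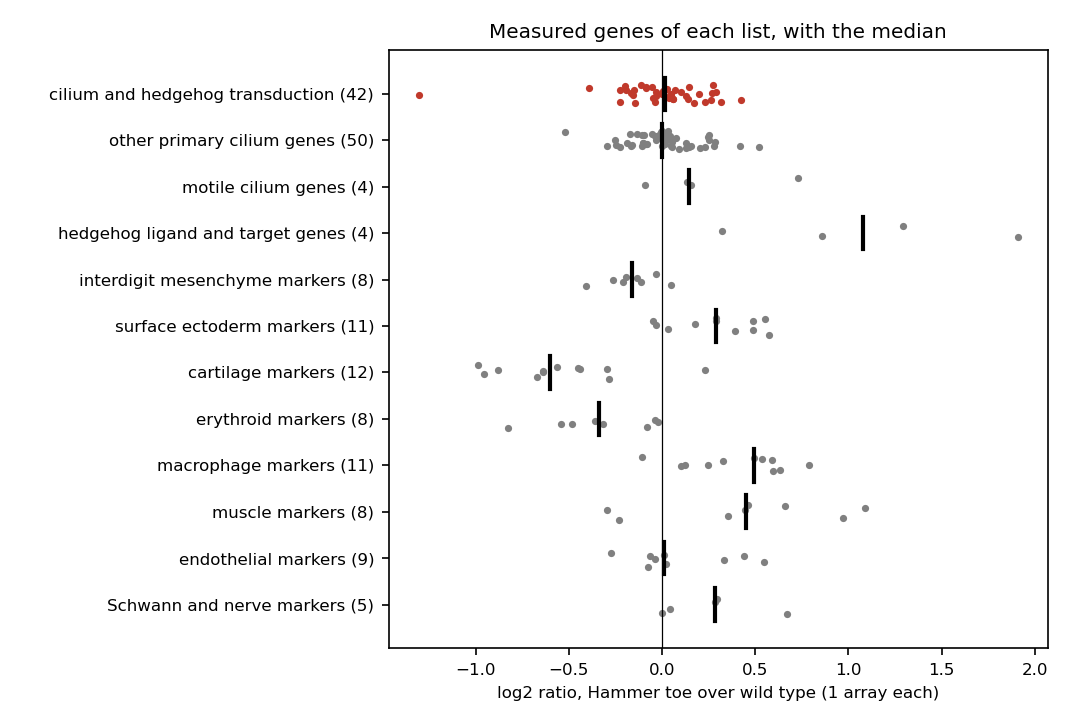
Log2 ratio, Hammer toe over wild type, of the measured genes of each list, with the number measured in brackets, 1 point per gene and a black bar at the median. Genes with an array under the floor are shown at their bound. The 42 cilium and hedgehog transduction genes (red) and the other primary cilium genes centre near 0, with Cdk20 at -1.31 far to the left, while the hedgehog ligand and target genes lie to the right and cartilage markers mostly to the left.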

How the data were processed

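The values the authors deposited are linear intensities, 1 for every probe set on each array. The submitters' processing notes name MAS5 and Affymetrix Expression Console without versions. Leaving out the top and bottom 2% of probe sets, both arrays averaged 500.003, so a change of most transcripts in one direction cannot be seen. Per the labels' protocols, labelled cRNA was made from 250 ng of total RNA.

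Of 45037 non-control probe sets, GEO's platform annotation, with symbols updated through the gene ID to the RefSeq table of GRCm38.p6, gave 34945 to 1 gene. That table was used for names and for the sequences printed, which are RefSeq's. Values under the floor, the median of all non-control intensities (78.1), were set to that floor, and log2 ratios were then taken, and a ratio with an array under the floor is a bound. The genes named were all 44 members, other primary cilium genes at a ratio of 1.25-fold or more (25%, brighter over dimmer array), Shh, Gli1, Ptch1 and Hhip. Further genes of the lists, such as Cilk1, Mak, Wdr60, Cluap1, Traf3ip1, Mkks, Hoxd13 and the markers under the floor, were chosen after their values were seen. So were Hoxa13, Hbb-y, Tal1, Sox10 and Tubb3, and the further core IFT-B and transition zone genes. The members and lists were chosen with earlier results of these data known. Alternatives were median centring, quantile normalization, lowess (span 0.3), other floors or none, a pseudocount, the mean over probe sets, and leaving out suffixed probe sets. Calculations used Python 3.11.15, pandas 2.3.3 and statsmodels 0.14.6, and the ratio functions were tested on simulated data. The listed symbols Ift38, Ift54, Ift70a1, Ift70b, Dync2i1 and Dync2i2 were matched by hand to the older symbols Cluap1, Traf3ip1, Ttc30a1, Ttc30b, Wdr60 and Wdr34. Ift25, Ift56, Talpid3, Dnai1 and Dnai2 were matched through synonyms in the RefSeq table.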

Additional observations from a re-analysis of the deposited data

How the results depend on the processing

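No paired analysis was possible because each genotype has 1 array. The median log2 ratio of the 42 genes ran from 0.0048 under the higher floor, the 75th percentile, to 0.041 without the suffixed probe sets, and that of the other primary cilium genes from -0.0021 to 0.020. Under that higher floor only 23 of the 42 genes were measured, with 0 higher and 0 lower by 25% or more and 0 lower by 1.5-fold. Of all genes measured there, 2.86% were higher and 2.39% lower by 25% or more, and 0.299% lower by 1.5-fold. Averaging the probe sets of a gene gave 2 genes at least 25% higher, Evc2 and Bbs10, where 7.83% of all measured genes were higher. Leaving out suffixed probe sets, which removes Cdk20, gave 2 higher, again Evc2 and Bbs10, 1 lower, Ift172, and 0 lower at 1.5-fold. Of all genes measured in that setting, 8.94% were higher and 6.93% lower by 25% or more, and 1.58% lower at 1.5-fold. Of 354 values of single genes under the alternatives, 351 moved by less than the SD between probe sets of a gene (0.21) and no gene that differed by 25% or more changed sign. The other 3 were Cdk20 at -0.84 with the pseudocount, Ift172 at -0.14 under the higher floor and Bbs10 at 0.54 without suffixed probe sets. Many of the 351 could not move. All 42 genes lay above the floor on both arrays, so a lower floor or none left their ratios unchanged. The mean over probe sets could not change the 29 genes with 1 measured probe set. Cdk20, Evc2 and Ift172, the genes that differed by 25% or more, are among these 29. Neither a floor nor a pseudocount can reverse a sign, and Cdk20 was not measured under the higher floor. That none of them changed sign therefore says little. Ratios smaller than 0.21 could change sign within that limit, as Tulp3 did from -0.15 to 0.034 with the mean over probe sets. At 2-fold or more, 2.53% of all measured genes were higher and 2.45% lower with the floor at the 25th percentile, and 8.12% and 8.36% with no floor. At 1.5-fold or more, 7.48% were higher and 6.89% lower at the 25th percentile, and 13.0% and 12.6% with no floor. Cdk20 was the 1 member at least 2-fold lower in these settings, and 0 were so with the pseudocount, under the higher floor or without suffixed probe sets. In those 3 settings 0.0516%, 0.0142% and 0.109% of all measured genes were at least 2-fold lower. Low signal over background limits Cdk20, Tctn1 and Bbs9 most. The promoter search gave 17 genes with the shorter GTTGCC, chosen after seeing the data, in place of 7 with GTTGCCA.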

Other observations

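Among the motile cilium genes, Rsph9, a radial spoke protein, read 129 in Hammer toe and 77.9 in wild type, just under the floor there, at least 1.66-fold higher on its only measured probe set. Tekt1 and Tekt2, tektins of axonemal microtubules, were at log2 ratios of 0.14 and -0.093, and Ccdc40, needed to place axonemal dynein, at 0.16 with its wild-type value under the floor.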
